A study of Homo sapiens with 15 samples.

Results

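Rapamycin converts the YAP-MAML2 fusion from condensates to a diffuse state in SPARK-OFF cells, and RNA-seq of these cells gives the change of each transcript that accompanies it. The comparison described here set 3 libraries of SPARK-OFF cells given rapamycin for 5 h (diffuse cells) against 3 libraries of SPARK-OFF cells given DMSO for 5 h (condensed cells). The question was how much condensation adds to the transcription that the diffuse fusion drives. These libraries were chosen by their sample labels and are 6 of the 15 in the series. All 18391 genes that passed edgeR's expression filter were examined. The cells were HEK293 (HEK293T in the labels), a human embryonic kidney line that is widely used to express introduced genes. SPARK-OFF cells stably expressed FKBP-mEGFP-YAP-MAML2 together with NLS-mCherry-Frb. Rapamycin bridges FKBP and Frb, so it brings the soluble mCherry onto the fusion. A no-mCherry line carried the tagged fusion without its mCherry partner and received rapamycin or DMSO for 5 h, with 3 libraries each, and in the study rapamycin left its condensates in place. The remaining 3 libraries were from mock-treated cells expressing eGFP alone. Every group other than the eGFP cells therefore carried the introduced fusion beside the cells' own YAP1 and MAML2. Whether each line was a clone or a pool is not given in the sources used here. Within SPARK-OFF cells, rapamycin and the loss of condensates cannot be told apart, and the no-mCherry line is the control for rapamycin itself.

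YAP is a transcriptional coactivator that the Hippo pathway kinases keep out of the nucleus, and it reaches DNA by binding TEAD transcription factors. MAML2 is a coactivator of Notch target genes, and in the tumour fusion its activation domain replaces the end of YAP while the TEAD-binding part of YAP is kept. CCN1, CCN2 and ANKRD1 are the most used transcriptional readouts of YAP and TEAD. Rapamycin also binds the cells' own FKBP12 and then inhibits mTORC1, the kinase complex that promotes ribosome production and protein synthesis.

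Few genes differed between diffuse and condensed cells. DEGs were called at a P-value below 0.01, a log2 fold change of 0.58 or more in size (1.5-fold) and an FDR below 0.1 by edgeR's quasi-likelihood test, fitted on all 15 libraries. Of the 18391 genes, 18 were DEGs with lower levels in diffuse cells (0.0979% of genes tested) and 10 were DEGs with higher levels (0.0544%). In all 28 DEGs the 3 diffuse libraries lay wholly above or wholly below the 3 condensed libraries, which was so for 12.8% of all genes. Members of gene lists were called at an adjusted p below 0.05 with no fold threshold, and over all genes that rule called 17 lower (0.0924%) and 7 higher (0.0381%). Without adjustment, 396 genes were lower (2.15%) and 611 higher (3.32%) at P below 0.05. The median log2 fold change of all genes was -0.01. Levels below are CPM, counts scaled to library size after TMM, and errors after ± are SD of 3 libraries. No source says that replicates came from separate cultures, so a p-value here reflects only how far these libraries spread, which may be technical.

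**Figure D1:**
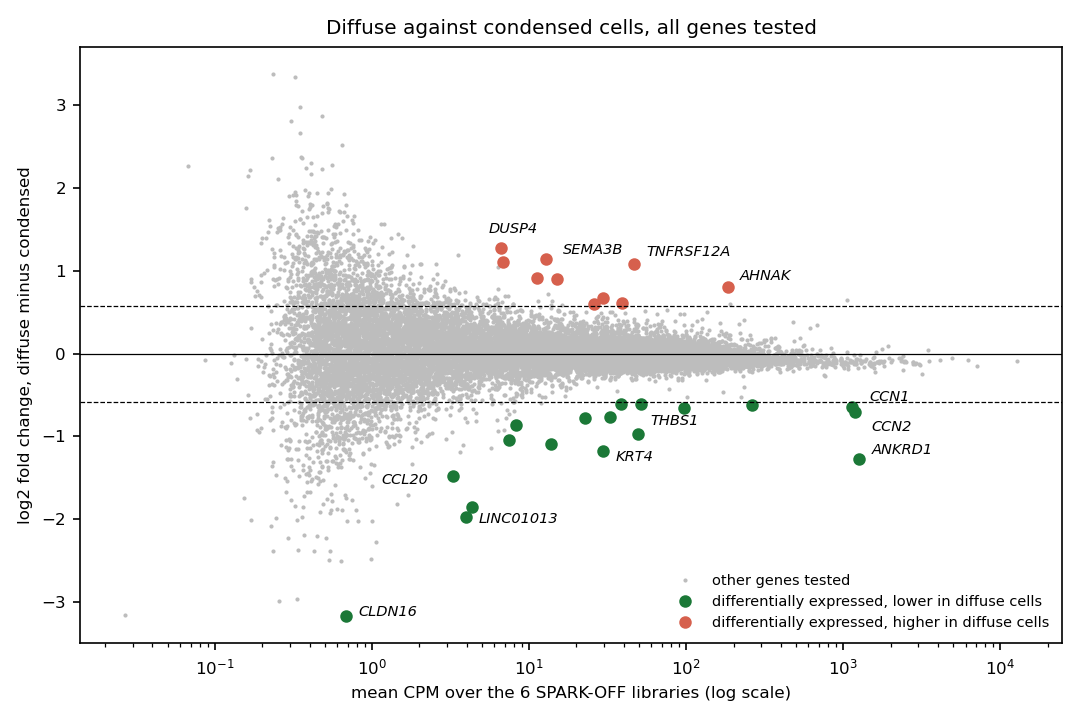
Each point is 1 of the 18391 genes tested, with its mean CPM over the 6 SPARK-OFF libraries on a log axis and its log2 fold change (diffuse minus condensed) on the vertical axis, and dashed lines mark a log2 change of 0.58 in either direction. The 18 lower DEGs (green) include ANKRD1, CCN1 and CCN2 among the most abundant genes, and the 10 higher DEGs (red) include TNFRSF12A and AHNAK.

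Total counts were 15476161 to 21223087 in condensed and 16526624 to 24797509 in diffuse libraries, and transcripts of the mitochondrial genome made up 2.86% to 3.33% in these 6. Each library correlated with its own group at 0.984 to 0.985 across genes. All 12 markers of HEK293 cells had counts in these libraries, and their summed level was 1441 to 1554 CPM in condensed and 1299.8 to 1309 CPM in diffuse libraries. These sums did not overlap, 3 of the 12 were lower and 0 higher at an unadjusted P below 0.05, none was called, and the part of this in the results was not tested. The sums hold much KRT8 (838 to 693 CPM from condensed to diffuse cells) and KRT18 (200 to 145 CPM). Over the 12 markers, 8 estimates were below 0 and 4 above. SOX11, MYCN and STMN2 were below 1 CPM in both groups. In eGFP cells the sum was only 689 to 730 CPM, so it is no plain measure of cell identity. Of 26 markers of other cell types, 8 had under 10 counts over the 6 libraries, with CD3E (T cells), HBB (red cells) and INS (pancreatic beta cells) at 0. The 15 that passed the filter summed to 58.3 to 61.97 CPM in condensed and 56.4 to 61.8 CPM in diffuse libraries, and none of the 15 was called.

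The transcripts of the fusion itself were measured first. MAML2 was at 395, 442 and 409 CPM in the condensed libraries and 553, 563 and 504 CPM in the diffuse libraries. The groups did not overlap, and the log2 fold change was 0.38 (SE 0.0978, adjusted p = 0.209), which did not pass. DESeq2 did pass MAML2 (adjusted p = 0.0198). YAP1 was at 181, 213 and 211 CPM in condensed and 276, 279.9 and 245 CPM in diffuse libraries, again without overlap, with a log2 fold change of 0.41 (SE 0.106, adjusted p = 0.215). The 95% intervals, 0.18 to 0.58 for MAML2 and 0.19 to 0.62 for YAP1, lay above 0. These are RNA levels, and the study reported unchanged fusion protein upon dissolution, by Western blot and by total fluorescence per cell. The part of the RNA difference in the results below was not tested. In eGFP cells MAML2 was at 3.63 CPM and YAP1 at 52.8 CPM. The no-mCherry line had less of the fusion RNA than SPARK-OFF cells, with MAML2 at 199, 225 and 237 CPM with DMSO and 261, 230.4 and 238 CPM with rapamycin. FKBP1A, which encodes the cells' own rapamycin-binding FKBP12, had a log2 fold change of -0.08 (95% interval -0.25 to 0.09), and MTOR, the rapamycin target kinase, had 0.09 (-0.18 to 0.36). Both intervals lay within 1.5-fold of no change.

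The sequences before ANKRD1, CCN2 and THBS1 are shown because these are lower DEGs whose upstream bases hold the TEAD core motif. Each is the 250 bases upstream of the gene's start in RefSeq (GRCh38.p14), 5′ to 3′ on the gene's strand, outside the transcribed gene, with the TEAD motif GGAATG (searched on both strands) and the AP-1 motif TGANTCA in capitals. THBS1 was added to the other 2 after its values were seen.
ANKRD1, chr10:90921088-90921337, minus strand: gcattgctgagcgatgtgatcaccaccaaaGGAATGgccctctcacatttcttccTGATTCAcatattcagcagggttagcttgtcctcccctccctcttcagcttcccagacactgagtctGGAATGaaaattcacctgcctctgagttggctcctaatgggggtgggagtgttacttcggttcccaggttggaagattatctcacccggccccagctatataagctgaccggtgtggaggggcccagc
CCN2, chr6:131951373-131951622, minus strand: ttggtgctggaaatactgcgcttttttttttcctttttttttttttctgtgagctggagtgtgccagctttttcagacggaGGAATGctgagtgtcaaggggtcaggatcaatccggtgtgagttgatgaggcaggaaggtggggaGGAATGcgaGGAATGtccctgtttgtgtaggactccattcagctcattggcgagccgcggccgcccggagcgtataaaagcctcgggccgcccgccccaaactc
THBS1, chr15:39580829-39581078, plus strand: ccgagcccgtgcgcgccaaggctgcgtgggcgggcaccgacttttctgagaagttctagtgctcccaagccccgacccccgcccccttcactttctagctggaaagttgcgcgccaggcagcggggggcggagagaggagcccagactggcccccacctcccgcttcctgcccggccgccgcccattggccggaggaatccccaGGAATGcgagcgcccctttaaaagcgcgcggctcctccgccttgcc
GGAATG stood 220 and 128 bases before the ANKRD1 start, 169, 104 and 95 bases before the CCN2 start and 46 bases before the THBS1 start, and a TGANTCA match stood 195 bases before the ANKRD1 start. The 2 motifs did not overlap in these windows. At least 1 GGAATG was in 6 of the 21 windows of the lower DEGs (28.6%), in 4 of the 13 windows of the higher DEGs (30.8%), in 9.93% of the 18015 windows of genes tested and in 11.9% of all 35116 windows. At least 2 were in 2 of the 21 windows of lower DEGs (9.52%), in 0 of the 13 of higher DEGs and in 0.688% of the windows of genes tested. TGANTCA was in 4 of the 21 windows of lower DEGs (19.05%), in 1 of the 13 of higher DEGs (7.69%) and in 4.57% of those of genes tested. Windows were found for 15 of the 16 lower and 7 of the 10 higher DEGs with a symbol, and a gene can have several. No window was matched to CCN1 or TNFRSF12A, so theirs are not shown. A match of letters is a description and not evidence of binding.

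The core YAP readouts fell but were not lost. ANKRD1 encodes an ankyrin repeat protein of muscle and lies on chromosome 10 from 90912096 to 90921087. It was at 1993, 1576 and 1780.1 CPM in the condensed libraries and 669, 768 and 784 CPM in the diffuse libraries. Every diffuse library was below every condensed library. The mean fell from 1783 ± 209 to 740.5 ± 62.2 CPM, a log2 fold change of -1.27 (SE 0.114, adjusted p = 3.03e-06) that left 41.5% of the condensed level. ANKRD1 had the smallest adjusted p of all genes. In eGFP cells its level was 1.098 CPM. In the no-mCherry line it was at 799.8, 740.2 and 878 CPM with DMSO and 646, 772 and 742 CPM with rapamycin, levels that overlap each other and lie near those of the diffuse libraries.

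CCN2 (CTGF) and CCN1 (CYR61) encode secreted matricellular proteins that bind integrins and modulate cell adhesion and growth factor signalling. CCN2, on chromosome 6 from 131948176 to 131951372, was at 1498, 1556 and 1351 CPM in the condensed libraries and 911, 898 and 899 CPM in the diffuse libraries. It fell by a log2 fold change of -0.70 (SE 0.08501, adjusted p = 0.000115), which left 61.5%. CCN1, on chromosome 1 from 85580761 to 85584589, was at 1378, 1445 and 1352 CPM in condensed and 902, 891 and 872 CPM in diffuse libraries. Its log2 fold change was -0.65 (SE 0.0752, adjusted p = 8.99e-05), which left 63.8%. For both genes the diffuse libraries lay closer together than the condensed ones and none overlapped. With rapamycin the no-mCherry line had log2 fold changes of -0.06 (SE 0.0853) for CCN2 and -0.001 (SE 0.0754) for CCN1, neither of which passed the test.

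**Figure D2:**
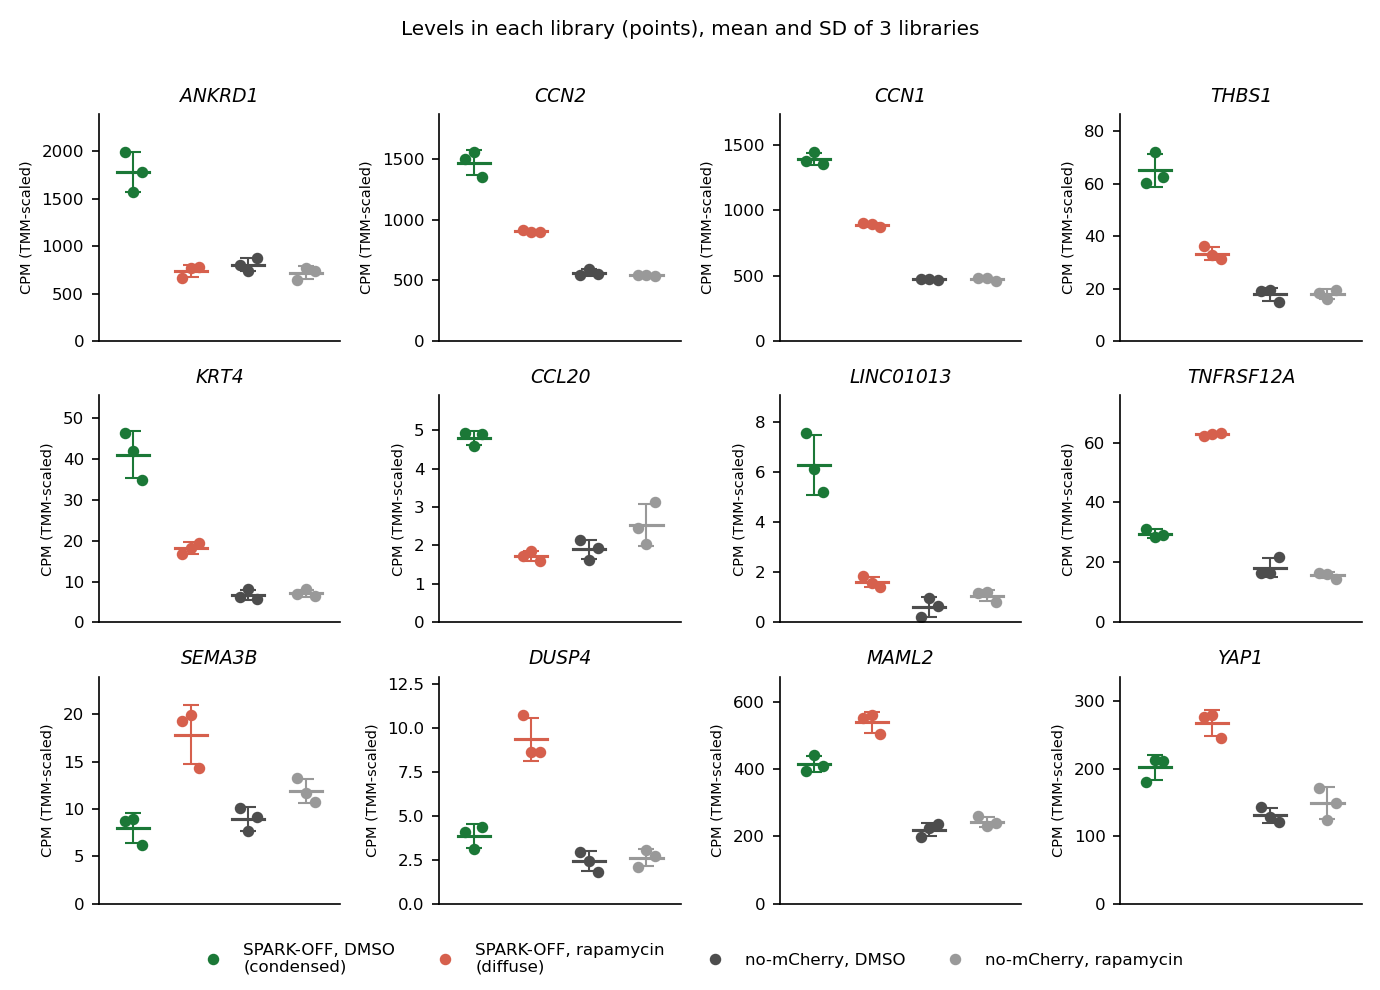
Points are the TMM-scaled CPM of single libraries in 4 groups of 3, with bars for the mean and SD, for 12 genes on axes that start at 0. ANKRD1, CCN2, CCN1, THBS1, KRT4, CCL20 and LINC01013 are lower in all 3 diffuse than in all 3 condensed libraries, TNFRSF12A, SEMA3B, DUSP4, MAML2 and YAP1 are higher, and in the no-mCherry line the 2 groups lie closer together.

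By edgeR, the rest of the core YAP target list held no call. Of 22 list members tested, edgeR called ANKRD1, CCN1 and CCN2 lower and none higher, and 19 were not called. Without adjustment, 7 were lower and 3 higher at P below 0.05. NT5E, which makes adenosine outside the cell, and TGFB2, a TGF-beta ligand, were among the 7 (-0.95 and -0.50, adjusted p = 0.386 and 0.596) and were named after their values were seen. The list's median log2 fold change was -0.07, against -0.01 for all genes, and 10 of the 22 estimates were above 0. AMOTL2, of the YAP-binding angiomotin family, went from 265 ± 19.9 to 201 ± 6.34 CPM (log2 fold change -0.40, adjusted p = 0.0808), and PTPN14, a phosphatase that restrains YAP, went from 76.1 ± 14.5 to 106 ± 13.1 CPM (0.48, adjusted p = 0.324). Neither passed, but AMOTL2 did so by DESeq2 (adjusted p = 0.000923) and limma-voom (0.0433). For 10 of the 22 members the 95% interval lay within 1.5-fold of no change. In the Hippo pathway and TEAD list, none of 33 members was called by edgeR and AMOTL2 alone by DESeq2 and limma-voom, 8 were higher and 1 lower at an unadjusted P below 0.05, and the median was 0.07. For Notch receptors, ligands and targets, the genes that MAML2 serves in its normal role, none of 24 was called by edgeR, DESeq2 or limma-voom, the median was 0.01 and no member reached an unadjusted P below 0.05. NOTCH2, a Notch receptor, and HEY1, a Notch target repressor, had log2 fold changes of 0.24 (adjusted p = 0.977) and 0.13 (adjusted p = 0.986). As edgeR called 0.0924% of all genes lower and 0.0381% higher, lists of 33 and 24 genes without a call are not set apart from all genes by their calls. At an unadjusted P below 0.05, 3.32% of all genes were higher and 2.15% lower. The 8 higher of 33 Hippo pathway and TEAD genes lay above that share, and 21 of the 33 estimates were above 0. Whether that list differs as a set was not tested.

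Transcripts next to CCN2 and CCN1 fell with them. LINC01013 is a long noncoding RNA on the plus strand of chromosome 6 from 131901848 to 132169992, and its span of 268145 bases contains all 3197 bases of CCN2, which lies on the minus strand. It was at 7.57, 6.13 and 5.21 CPM in condensed and 1.85, 1.58 and 1.43 CPM in diffuse libraries, with no overlap. The log2 fold change was -1.97 (SE 0.318, adjusted p = 0.00416). The strand setting of the authors' counting is not given in the sources used here, so reads of CCN2 and of this antisense RNA may not have been told apart.

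DDAH1, which encodes an enzyme that breaks down asymmetric dimethylarginine, an inhibitor of nitric oxide synthesis, ends 2397 bases from CCN1 on chromosome 1, in the opposite orientation. It was at 303, 326 and 319.7 CPM in condensed and 213, 202 and 204 CPM in diffuse libraries. Its log2 fold change was -0.61 (SE 0.0812, adjusted p = 0.000344), close to that of CCN1. The unnamed long noncoding RNA ENSG00000282057.1, whose 95970 bases lie wholly within DDAH1 on the same strand, went from 18.8 ± 3.74 to 8.84 ± 1.32 CPM (log2 fold change -1.09, SE 0.198, adjusted p = 0.0144). Its reads may be shared with DDAH1. It lost the call without diffuse replicate 1 (log2 fold change -0.98, adjusted p = 0.19) and without condensed replicate 2 (-0.93, adjusted p = 0.163). The second unnamed lower DEG was ENSG00000197376.3, a transcribed processed pseudogene on chromosome 12 from 48507354 to 48529897, which went from 6.78 ± 0.666 to 1.89 ± 0.295 CPM (-1.85, SE 0.269, adjusted p = 0.00205). Counts of a processed pseudogene can include reads of its parent gene. Both unnamed genes were named after their values were seen.

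Of the matricellular and secreted regulators, 4 were called lower, among them CCN1 and CCN2. THBS1 encodes thrombospondin-1, a matricellular protein that inhibits angiogenesis and activates latent TGF-beta, and lies on chromosome 15 from 39581079 to 39599466. It was at 60.4, 72.1 and 62.7 CPM in condensed and 36.2, 32.6 and 31.3 CPM in diffuse libraries. The groups did not overlap and 51.2% of the level was left, with a log2 fold change of -0.97 (SE 0.115, adjusted p = 0.000115). FSTL3, a secreted binder of activin and myostatin, was at 117, 114 and 122 CPM in condensed and 79.5, 73.2 and 71.4 CPM in diffuse libraries (-0.66, SE 0.111, adjusted p = 0.00767). Of 22 such regulators tested, edgeR called these 2 with CCN1 and CCN2 lower and none higher, while the list's median was 0.11 and 14 of the 22 estimates were above 0. SMOC1 of this list met the DEG thresholds at a higher level, and DESeq2 called it higher at the list threshold too (adjusted p = 0.00542). The most abundant uncalled member, FSTL1, a secreted glycoprotein, had a log2 fold change of 0.11 (95% interval -0.07 to 0.28).

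Further secreted factors fell as well. CCL20, the chemokine that attracts CCR6-bearing lymphocytes and dendritic cells, was at 4.92, 4.58 and 4.89 CPM in condensed and 1.73, 1.85 and 1.58 CPM in diffuse libraries. It had the largest fall among the secreted factors named here (-1.48, SE 0.256, adjusted p = 0.0118), from a low level, and without diffuse replicate 3 its adjusted p was 0.112. DKK1, a secreted inhibitor of Wnt signalling, went from 41.4 ± 6.05 to 24.3 ± 0.978 CPM (-0.76, SE 0.131, adjusted p = 0.00817), and without condensed replicate 3 its adjusted p was 0.124. ADM, which encodes the vasodilator peptide adrenomedullin and is induced by hypoxia, went from 62.1 ± 4.46 to 40.8 ± 2.89 CPM (-0.61, SE 0.107, adjusted p = 0.0118). HPSE, heparanase, which cleaves heparan sulfate in the matrix, went from 46.3 ± 2.82 to 30.5 ± 0.532 CPM (-0.60, SE 0.0965, adjusted p = 0.00381). ADM and HPSE sat near the fold threshold, and HPSE dropped below it without condensed replicate 1 (-0.57), while ADM kept its call only without diffuse replicate 1 or condensed replicate 2 of the 6 fits that left out a library (adjusted p 0.0219 to 0.149 over the 6). CCL20 was the only called member of 15 chemokines and NF-kB targets (list median 0.02), ADM of 36 glycolysis and hypoxia genes (-0.06) and HPSE of 41 basement membrane, proteoglycan and matrix protease genes (0.12).

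The remaining lower DEGs encode intracellular or membrane proteins. KRT4, a keratin of stratified epithelia of the mouth and oesophagus, was at 46.4, 42.03 and 34.9 CPM in condensed and 16.8, 18.3 and 19.6 CPM in diffuse libraries. Diffuse libraries kept 44.4% of the condensed level without overlap (-1.17, SE 0.138, adjusted p = 0.000126). Of 17 keratins and other intermediate filament genes tested, KRT4 alone was called, with a list median of -0.08. KRT8 and KRT18, the keratin pair of simple epithelia, had log2 fold changes of -0.27 (adjusted p = 0.658) and -0.47 (adjusted p = 0.279). EMP1, an epithelial membrane protein, went from 10.1 ± 1.72 to 4.86 ± 0.355 CPM (-1.05, SE 0.204, adjusted p = 0.0322). ALPK2, an alpha kinase, went from 28.4 ± 2.33 to 16.6 ± 0.684 CPM (-0.77, SE 0.161, adjusted p = 0.05803). ACTBL2, an actin-like protein, went from 10.7 ± 1.31 to 5.86 ± 0.832 CPM (-0.86, SE 0.188, adjusted p = 0.0905). CLDN16, a tight junction protein of kidney magnesium handling that was named after its values were seen, was at 0.867, 1.602 and 1.22 CPM in condensed and 0.0577, 0.163 and 0.158 CPM in diffuse libraries (-3.17, SE 0.673, adjusted p = 0.0301). These last 4 calls needed nearly all libraries. With any of the 6 left out, ALPK2 and ACTBL2 lost the call (adjusted p 0.1096 to 0.345 and 0.194 to 0.568), and EMP1 and CLDN16 kept it only without condensed replicate 1 (adjusted p 0.0365 to 0.241 and 0.0425 to 0.238 over the 6). ACTBL2 also lost it under upper-quartile scaling (adjusted p = 0.102). CLPTM1L, a membrane protein of the endoplasmic reticulum named after its values were seen, passed the adjusted p but not the fold threshold (263 ± 22.01 to 183 ± 3.901 CPM, log2 fold change -0.53, adjusted p = 0.00257).

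A smaller set of genes rose in diffuse cells. TNFRSF12A encodes FN14, the receptor of the cytokine TWEAK, and lies on chromosome 16 from 3018445 to 3022383. It was at 31.2, 28.4 and 29.2 CPM in condensed and 62.2, 62.8 and 63.1 CPM in diffuse libraries. The diffuse libraries lay within 1 CPM of each other and above all condensed libraries, with a log2 fold change of 1.08 (SE 0.1204, adjusted p = 6.78e-05). In the no-mCherry line its log2 fold change was -0.21 (SE 0.131, adjusted p = 0.463). SEMA3B, a secreted semaphorin that repels axons and acts through neuropilins, was at 8.77, 8.95 and 6.17 CPM in condensed and 19.3, 19.95 and 14.3 CPM in diffuse libraries (1.15, SE 0.164, adjusted p = 0.00106). DUSP4, a phosphatase that inactivates MAP kinases in the nucleus, was at 4.096, 3.09 and 4.37 CPM in condensed and 10.8, 8.64 and 8.68 CPM in diffuse libraries (1.28, SE 0.202, adjusted p = 0.00352). These 3 were called in every fit, whatever library was left out, with adjusted p of at most 0.00125, 0.0158 and 0.0481 in turn. By edgeR each stood alone in its list. TNFRSF12A was the only called member of 22 TNF and growth factor receptors (median 0.11), SEMA3B of 29 semaphorins, plexins and neuropilins (0.16) and DUSP4 of 21 MAPK feedback inhibitors (0.07). FGFR3, a fibroblast growth factor receptor and the most abundant uncalled receptor, stood at 0.40 on the log2 scale (adjusted p = 0.1001, and 0.00436 by DESeq2).

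The other higher DEGs included matrix, scaffold and DNA-binding proteins. LOXL4, a lysyl oxidase that crosslinks collagen, was at 5.35, 3.04 and 4.5 CPM in condensed and 8.71, 10.2 and 8.95 CPM in diffuse libraries (1.11, SE 0.198, adjusted p = 0.01201). LOXL4 also rose with rapamycin in the no-mCherry line (0.99, SE 0.212, adjusted p = 0.0161), and the difference between the lines was 0.12 (SE 0.2902, adjusted p = 0.951). COL5A3, a fibrillar collagen chain, went from 10.4 ± 1.92 to 19.5 ± 3.92 CPM (0.91, SE 0.187, adjusted p = 0.0566). LOXL4 was the only member of 35 collagen and collagen processing genes that edgeR called (median 0.05), while DESeq2 and limma-voom called COL5A3 as well (adjusted p = 0.00436 and 0.0126). JDP2, a repressor of AP-1 target genes, went from 7.74 ± 2.39 to 14.7 ± 0.3002 CPM (0.91, SE 0.196, adjusted p = 0.0693). AHNAK, a giant scaffold protein beneath the plasma membrane, was at 107, 159 and 133 CPM in condensed and 263, 247 and 191 CPM in diffuse libraries (0.81, SE 0.179, adjusted p = 0.0905). SMOC1, a calcium-binding matrix protein that modulates BMP signalling, HIVEP1, a zinc finger transcription factor, and RHBDF1, an inactive rhomboid protein that traffics growth factor sheddases, had log2 fold changes of 0.67, 0.61 and 0.61 (adjusted p = 0.0599, 0.05803 and 0.0448). Leaving out libraries ended most of these calls. SMOC1 kept its call in 0 of the 6 fits (adjusted p 0.149 to 0.387). JDP2 and HIVEP1 kept it only without condensed replicate 2 (0.0277 to 0.445 and 0.05903 to 0.425 over the 6) and RHBDF1 only without condensed replicate 1 (0.0375 to 0.372). AHNAK kept it without diffuse replicate 3 or condensed replicate 2 (0.0723 to 0.508) and COL5A3 without diffuse replicate 3 or condensed replicate 3 (0.07196 to 0.401). LOXL4 kept it in 4, with adjusted p of 0.1299 without diffuse replicate 2 and 0.132 without condensed replicate 2. DESeq2 also did not call AHNAK (adjusted p = 0.108). KLF10, a TGF-beta-induced zinc finger repressor, was the only member of 30 immediate early factors that edgeR called (33.8 ± 0.154 to 47.4 ± 1.12 CPM, log2 fold change 0.49, adjusted p = 0.0334, list median 0.10). DESeq2 and limma-voom called JDP2 of that list as well (adjusted p = 0.00701 and 0.0275). HOXD10, a homeobox factor named after its values were seen, also passed the adjusted p without the fold threshold (0.51, adjusted p = 0.0341).

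Changes were also set against exon length. Among 9923 genes of at least 10 CPM with an annotated exon length, the 682 with under 2000 exonic bases had a median log2 fold change of -0.08, and 5 of them were higher and 22 lower at an unadjusted P below 0.05. The 1822 genes of 10000 exonic bases or more had a median of 0.04, with 104 higher and 13 lower. AHNAK has 19466 exonic bases and HIVEP1 11005, while TNFRSF12A has 1801 and ANKRD1 1790. Long lower DEGs were LINC01013 with 20523, the most of any DEG, ALPK2 with 9565 and THBS1 with 9158. In the no-mCherry line the same length classes had medians of -0.02 and -0.03. The part of length in the calls was not tested.

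The study marked some genes in its own analysis of these libraries, which is therefore no independent evidence. The marked genes are not its full list, and it called more genes in this contrast at the same thresholds than were called here. The quasi-likelihood test gave 10 higher and 18 lower DEGs, and the likelihood ratio test gave 36 and 44. Why the counts differ from the study's was not tested. Of the 26 marked genes, 18 were DEGs here, 11 at lower and 3 at higher levels at an adjusted p below 0.05. Of the 8 that were not DEGs, 6 met the DEG thresholds under at least 1 other setting, and IGFBP3 and SLC6A19 did not. The 8 all had unadjusted P below 0.05 and low levels. CYP26A1, which degrades retinoic acid, was at 8.096, 8.12 and 8.87 CPM in condensed and 4.21, 4.35 and 4.48 CPM in diffuse libraries (-0.94, adjusted p = 0.102), just past the FDR threshold, and passed it by DESeq2 (adjusted p = 0.0113) and on the 6 SPARK-OFF libraries (0.00884). IGFBP3, a carrier of insulin-like growth factors, stood at a log2 fold change of -0.82 (adjusted p = 0.755), DDX60L, a helicase-like protein, -1.70 (0.1202, and 0.0108 by DESeq2), MIR100HG, a microRNA host RNA, -2.48 (0.142, and 0.0275 by DESeq2), NEK2P1, a pseudogene, -2.27 (0.309) and SLC6A19, an amino acid transporter, -1.06 (0.769). HSPB8, a small heat shock protein, had 1.20 (0.287) and TMEM130, a membrane protein, 1.45 (0.287). The groups did not overlap in 8 of these 8, against 12.8% of all genes, but the study had marked them from these same libraries. The mean of the higher group was under 9 CPM in each.

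Most lists held no gene called by edgeR, which over all genes called 0.0924% lower and 0.0381% higher. A list of 13 to 45 genes without a call is therefore not set apart from all genes by its calls. None was called among 37 cell-substrate adhesion genes (median 0.13), 22 SRF and MRTF targets (0.12), 34 TGF-beta and BMP genes (0.05), 27 interferon-stimulated genes (-0.02), 45 cell cycle genes (-0.06), 24 replication-dependent histones (-0.11), 41 lysosome and autophagy genes (-0.03) or 13 mitochondrially encoded mRNAs (-0.08). At an unadjusted P below 0.05 these lists held 7 higher and 0 lower, 3 and 1, 3 and 2, 0 and 2, 1 and 0, 0 and 0, 0 and 1, and 0 and 2 genes in that order. The shares over all genes were 3.32% higher and 2.15% lower. The 7 higher of 37 adhesion genes lay above that share, and 29 of the 37 estimates were above 0. Whether any of these lists differs as a set was not tested. DESeq2 called CAVIN1 and L1CAM higher in the adhesion list, SKIL higher in the TGF-beta list and DDX60L lower in the interferon list, and limma-voom called L1CAM and DDX60L, all 4 named after their values were seen. In the cell cycle list the 95% interval of 43 of the 45 genes lay within 1.5-fold of no change. FLNA, filamin A, an actin crosslinker and SRF target, stood at 0.31 on the log2 scale (adjusted p = 0.769). The 6 nuclear-retained long RNAs had the highest median of any list, 0.27, and all 6 estimates were above 0. NEAT1, the scaffold RNA of paraspeckles, went from 80.7 ± 2.44 to 112 ± 7.497 CPM (0.48, adjusted p = 0.557), and MALAT1, a nuclear speckle RNA, from 51.6 ± 1.88 to 65.4 ± 3.54 CPM (0.34, adjusted p = 0.567). Neither passed, 3 of the 6 were higher at an unadjusted P below 0.05, DESeq2 and limma-voom called none, and in the no-mCherry line NEAT1 had a log2 fold change of 0.47 and MALAT1 of -0.02.

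**Figure D3:**
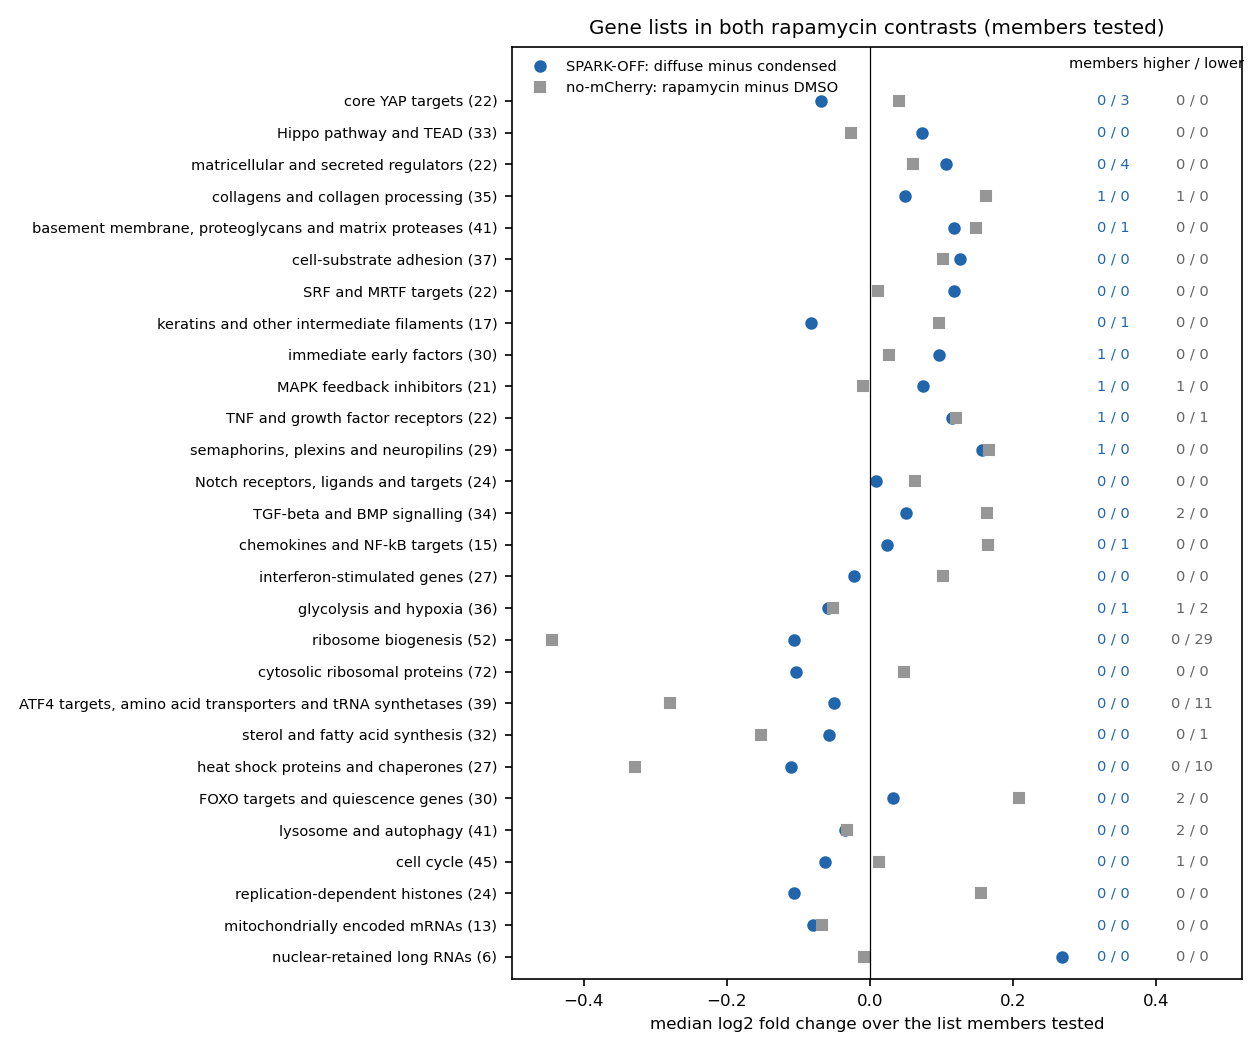
Each row is a gene list with the number of members tested in brackets, and the horizontal axis is the median log2 fold change of its members in SPARK-OFF cells (blue circles, diffuse minus condensed) and in no-mCherry cells (grey squares, rapamycin minus DMSO), with the members called higher and lower at an adjusted p below 0.05 on the right. Ribosome biogenesis stands at -0.11 with 0 called in SPARK-OFF cells and at -0.44 with 29 called lower in no-mCherry cells.

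The no-mCherry line gives the change with rapamycin where the condensates stayed. In these cells 85 genes were DEGs at higher levels (0.462%) and 66 at lower levels (0.359%) with rapamycin, and the adjusted p alone called 83 higher (0.451%) and 215 lower (1.17%). This contrast shares no library with that of diffuse and condensed cells. LOXL4 was the single DEG of both, which is 3.57% of the 28 and 0.662% of the 151. Across all genes the log2 fold changes of the 2 contrasts correlated at a Pearson r of 0.06 and a Spearman rho of 0.13, as a description. The 18 lower DEGs of diffuse cells had a median log2 fold change of -0.91 there and 0.08 in the no-mCherry line, where their values ranged from -0.16 to 0.76. The 10 higher DEGs had medians of 0.91 and 0.21.

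**Figure D4:**
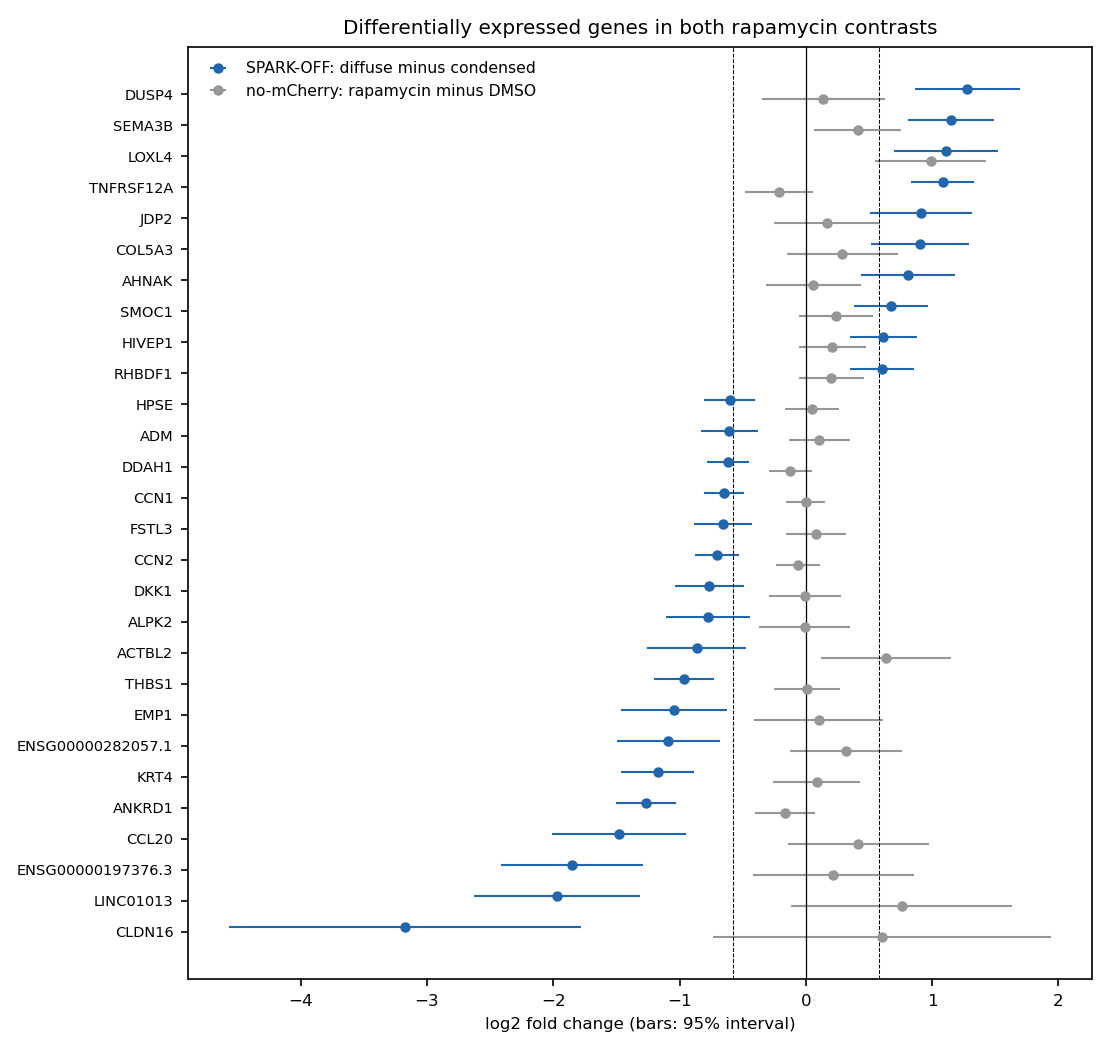
Points are the log2 fold changes of the 28 DEGs with bars for the 95% interval, in SPARK-OFF cells (blue, diffuse minus condensed) and no-mCherry cells (grey, rapamycin minus DMSO), and dashed lines mark 0.58 in either direction. ANKRD1 stands at -1.27 and -0.16 in the 2 lines and TNFRSF12A at 1.08 and -0.21, whereas LOXL4 is at 1.11 and 0.99.

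The difference between the 2 contrasts was tested as an interaction in the same fit. It called 13 genes more negative in SPARK-OFF cells (0.0707%) and 5 more positive (0.0272%) at an adjusted p below 0.05, and 22 (0.12%) and 13 (0.0707%) under the DEG thresholds. Of the 18 lower DEGs, 7 differed at an adjusted p below 0.05 and 13 below 0.1, and of the 10 higher DEGs TNFRSF12A alone did so at either level. ANKRD1 had a difference of -1.10 (SE 0.161, adjusted p = 0.00581) and TNFRSF12A of 1.30 (SE 0.178, adjusted p = 0.00431). Both stayed below 0.05 in all 12 fits that left out a library and all 8 other fits. CCN1 (-0.65, adjusted p = 0.01703) and CCN2 (-0.64, adjusted p = 0.0348) also differed. CCN1 stayed below 0.05 in 9 of the 12 and CCN2 only without no-mCherry DMSO replicate 2 or 3, with adjusted p of up to 0.0786 and 0.124 over these 12. CCN1 lost it without diffuse replicate 2 or 3 or no-mCherry rapamycin replicate 2. The differences of THBS1 (-0.97), KRT4 (-1.26), LINC01013 (-2.73) and CCL20 (-1.90) had adjusted p of 0.0237, 0.0237, 0.0354 and 0.04802 and kept this in 6, 4, 2 and 1 of the 12. For LINC01013 and CCL20 the difference was larger than the change in SPARK-OFF cells alone (-1.97 and -1.48). Their estimates in the no-mCherry line lay above 0, without a call there. The lines differ in the amount of fusion RNA as well as in mCherry, and the part of that in these differences was not tested.

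Lists related to growth were compared between the lines, and the test of the difference itself passed for 1 of 52 ribosome biogenesis, 1 of 27 heat shock and 1 of 39 ATF4 list genes. Over all genes edgeR called 0.0924% lower in SPARK-OFF cells and 1.17% lower in the no-mCherry line. Of the 52 ribosome biogenesis genes, none was called by edgeR in diffuse against condensed cells, 3 were lower at an unadjusted P below 0.05 and DESeq2 called 1 (median -0.11), with 51 of the 52 intervals within 1.5-fold of no change, whereas 29 were called lower in the no-mCherry line (median -0.44). NPM1, NCL, GNL3 and DDX21, abundant nucleolar proteins, had log2 fold changes of -0.12, -0.12, -0.12 and -0.09 in SPARK-OFF cells. In the no-mCherry line the same genes had -0.31, -0.33, -0.79 and -0.60, with adjusted p of 0.244, 0.0416, 0.00139 and 0.000357. The difference between the lines passed for NOP16, a nucleolar assembly factor (0.91, adjusted p = 0.0285), and, outside the list, for POLR1G, a subunit of RNA polymerase I (1.17, adjusted p = 0.0348). NOP16 kept this in 4 and POLR1G in 1 of the 12 fits that left out a library (adjusted p up to 0.123 and 0.129). POLR1G was at 8.05, 7.24 and 7.14 CPM in condensed, 8.82, 9.02 and 9.27 CPM in diffuse, 5.98, 5.603 and 5.56 CPM in no-mCherry DMSO and 3.06, 3.34 and 2.79 CPM in no-mCherry rapamycin libraries. Only the no-mCherry pair separated downward.

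Heat shock proteins and amino acid response genes were counted in the same way. Of 27 heat shock proteins and chaperones, 0 were called in SPARK-OFF cells by edgeR as fitted throughout, DESeq2 or limma-voom, with 1 higher and 1 lower at an unadjusted P below 0.05 (median -0.11), and 10 were lower in the no-mCherry line (-0.33). HSPB8 was called higher in SPARK-OFF cells without the filter on low counts (adjusted p = 0.02703), on the 6 SPARK-OFF libraries (0.0197) and by the likelihood ratio test (0.0448). HSPA8, the constitutive HSP70, was at 3235, 2547 and 2926 CPM in condensed, 2465, 2677 and 2847 CPM in diffuse, 2924, 2745 and 3713 CPM in no-mCherry DMSO and 1347, 1655 and 1662 CPM in no-mCherry rapamycin libraries, with a difference between the lines of 0.88 (SE 0.167, adjusted p = 0.0348). It kept this in 3 of the 12 fits that left out a library (adjusted p up to 0.123). HSPH1, an HSP110 chaperone, had a difference of 0.56 (adjusted p = 0.0646), above 0.05. Of 39 ATF4 targets, amino acid transporters and tRNA synthetases, 0 were called in SPARK-OFF cells by any of the 3 tools, with 1 higher at an unadjusted P below 0.05 (-0.05), and 11 were lower in the no-mCherry line (-0.28). SLC7A5, the large neutral amino acid transporter LAT1, had log2 fold changes of -0.02 and -0.86 in the 2 lines (difference 0.85, adjusted p = 0.04802, kept in 1 of the 12 fits), and ATF4 itself had -0.14 and -0.38. NOP16 and SLC7A5 were named after their values were seen. LBH, a transcription cofactor of limb bud and heart, moved in opposite directions in the 2 lines without passing in either (0.70 and -0.48, difference 1.18, adjusted p = 0.0762).

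By origin of the calls, the 215 genes called lower with rapamycin in the no-mCherry line had a median log2 fold change of -0.50 there and -0.09 in SPARK-OFF cells. In SPARK-OFF cells edgeR called 0 of them lower, but it called only 0.0924% of all genes lower. The 83 called higher had 0.56 and 0.04, with 1 called higher in SPARK-OFF cells, against 0.0381% of all genes. The first value of each pair belongs to the libraries that chose the genes, and the second to libraries that did not. The number of calls in the no-mCherry line depended on the fit. On its own 6 libraries, 1 of the 52 ribosome biogenesis, 1 of the 27 heat shock and 0 of the 39 ATF4 list genes were called lower, with medians of -0.44, -0.32 and -0.28. Without no-mCherry rapamycin replicate 1, 2 or 3 the ribosome biogenesis calls were 14, 15 and 15, the heat shock calls 4, 6 and 6, and the ATF4 list calls 6 each time. Without no-mCherry DMSO replicate 1, 2 or 3 they were 17, 23 and 34, 8, 12 and 9, and 8, 11 and 11 in the same order of lists. The medians stayed between -0.46 and -0.23 under every alternative run for the 3 lists.

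For many genes a change could be bounded. The 95% interval of the log2 fold change lay within 0.58 of 0, a change of less than 1.5-fold either way, for 10885 genes, 59.2% of those tested. The share rose with level, from 0 of 3237 genes below 1 CPM and 24.7% of 5227 genes at 1 to 10 CPM to 95.9% of 7665 genes at 10 to 100 CPM and 99.1% of 2262 genes at 100 CPM and above. In the class of 100 CPM and above, 5 genes were DEGs. The 5 most abundant uncalled genes with such an interval were EEF1A1, the translation elongation factor (-0.08, -0.36 to 0.20), the mitochondrial rRNA MT-RNR2 (-0.15, -0.44 to 0.14), the cytochrome oxidase subunit MT-CO1 (-0.08, -0.25 to 0.09), the ribosomal protein RPS2 (-0.05, -0.25 to 0.15) and the chaperone HSP90AA1 (-0.08, -0.34 to 0.18). Of 72 cytosolic ribosomal proteins, 70 had such an interval and none was called, with a median of -0.10. The median SE was 0.600 below 1 CPM and 0.0982 at 100 CPM and above, and this error holds replicate variation as well as counting error.

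**Figure D5:**
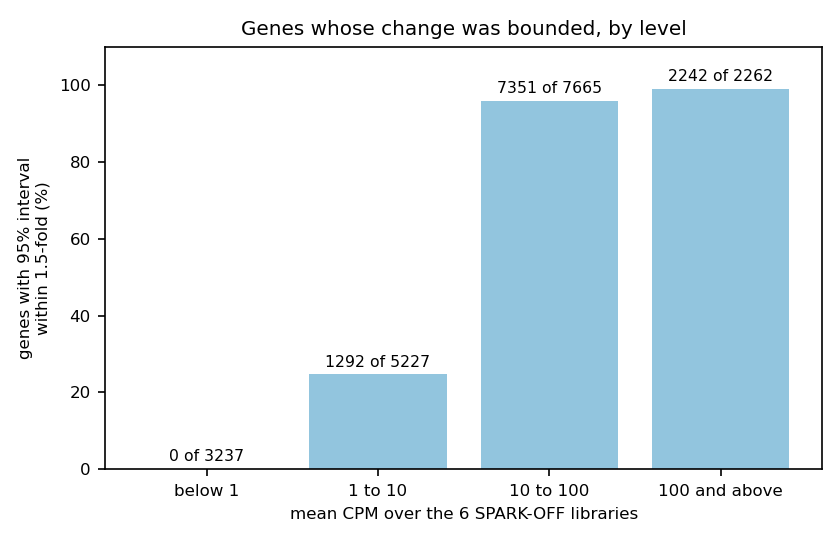
Bars give the percentage of genes in each class of mean CPM over the 6 SPARK-OFF libraries whose 95% interval lies within 1.5-fold of no change, with the number of such genes and of all genes in the class above each bar. The share goes from 0 of 3237 genes below 1 CPM to 2242 of 2262 genes at 100 CPM and above.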

How the data were processed

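Total RNA was extracted with a column kit and libraries were made and sequenced by a service company. For each library the authors ran fastp, STAR (genome hg38) and a gene counter, and FastQC, HTSeq and edgeR appear in the submitters' processing notes. The sources used here do not give the annotation release, strand setting or versions. The deposited values were raw counts for 61533 genes in 15 libraries. Symbols and coordinates came from the GRCh38 tables supplied with the data.

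Counts were analysed with edgeR 4.0.16 (limma 3.58.1, R 4.3.3): its expression filter kept 18391 genes, and a quasi-likelihood fit with TMM scaling (factors 0.901 to 1.05) had 1 coefficient for each of the 5 groups. Adjusted p-values are Benjamini-Hochberg over all 18391 genes. On simulated data for diffuse against condensed cells (18055 genes), the DEG rule recovered 37.3% of genes planted at a log2 change of 0.58, 86.6% at 1 and 98.5% at 2, with 10 false calls. Changes were planted only in genes with a mean of at least 1 CPM over the 15 libraries, so these rates do not cover genes below that level. At the 3 sizes 67, 67 and 66 genes were planted, more than the 28 DEGs of the real contrast. A Benjamini-Hochberg threshold is easier to pass when more genes change, so the rates may be too high for the real data. Replicates of a group differed by more than counting noise (chi-square per degree of freedom of at least 3.30). Total counts were 14720387 to 24797509.

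The genes, lists and contrasts were chosen with earlier results of these data known. Named genes were those that the study marked, the fusion and tag genes, per direction the 15 DEGs of largest change with a symbol, no overlap and 5 CPM or more in the higher group, the 5 largest differences between the lines per direction, called and highest-CPM members of lists, and the 5 most abundant genes with a bounded change. For the no-mCherry DMSO libraries, titles and treatments were used although their descriptions name rapamycin. Alternatives were RLE and upper-quartile scaling, no filter, fits of the libraries of a contrast only, the likelihood ratio test, limma-voom, DESeq2 1.42.0, a replicate block and each library left out.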

Additional observations from a re-analysis of the deposited data

Results flagged for a closer look

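The response to rapamycin differed between SPARK-OFF and no-mCherry cells for 12 named genes, by edgeR's test of the difference between the contrasts (log2, SPARK-OFF minus no-mCherry, adjusted p below 0.05). More negative in SPARK-OFF cells were LINC01013 (-2.728, adjusted p = 0.0354), CCL20 (-1.896, adjusted p = 0.048), KRT4 (-1.258, adjusted p = 0.0237), ANKRD1 (-1.105, adjusted p = 0.00581), THBS1 (-0.9719, adjusted p = 0.0237), CCN1 (-0.6467, adjusted p = 0.017) and CCN2 (-0.6404, adjusted p = 0.0348). All 7 were DEGs at lower levels in diffuse cells.

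More positive in SPARK-OFF cells were TNFRSF12A (1.296, adjusted p = 0.00431), POLR1G (1.168, adjusted p = 0.0348), NOP16 (0.905, adjusted p = 0.0285), HSPA8 (0.8838, adjusted p = 0.0348) and SLC7A5 (0.8454, adjusted p = 0.048). TNFRSF12A was a DEG at a higher level in diffuse cells. POLR1G, NOP16, HSPA8 and SLC7A5 were not called in SPARK-OFF cells and were lower with rapamycin in the no-mCherry line. ANKRD1 and TNFRSF12A kept an adjusted p below 0.05 in every fit that left out a library, and the other 10 in 1 to 9 of the 12.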

How the results depend on the processing

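None of the 28 DEGs changed sign under any alternative run, and the 10 higher and 18 lower genes became 11 and 20 with RLE scaling, 10 and 17 with upper-quartile scaling, 30 and 33 without the filter on low counts (40703 genes), 22 and 30 in the fit of the 6 SPARK-OFF libraries, 36 and 44 with the likelihood ratio test, 13 and 30 with limma-voom, and 22 and 33 with DESeq2. Leaving out a library gave 4 to 8 higher and 12 to 14 lower. In the settings that kept all libraries of the contrast, the replicate block included, the 28 were all called except ACTBL2 with upper-quartile scaling and AHNAK with DESeq2. With the 6 fits that left out a library added, 12 of the 28 were called in all 14 fits. In no-mCherry cells the 85 higher and 66 lower became 113 and 42 with upper-quartile scaling, so that the higher share of calls went from 56.3% to 72.9%, 20 and 37 in the fit of its own 6 libraries, and 181 higher with the likelihood ratio test, with 31 to 163 higher and 49 to 121 lower when a library was left out. The extremes came without no-mCherry rapamycin replicate 1 (31 higher) and DMSO replicate 2 (163 and 121). The 35 genes of the difference became 68 without the filter, 99 with the likelihood ratio test, 81 with DESeq2, and 8 (without diffuse replicate 3) to 91 (without no-mCherry DMSO replicate 3). The 10885 bounded genes became 9948 to 10387 with a library left out. The cause of these changes was not tested.

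Same-numbered replicates did not deviate together, with correlations of -0.07 to -0.002 in SPARK-OFF and -0.11 to 0.06 in no-mCherry cells, so the numbers were not taken to pair samples. With a replicate block the counts were 20 higher and 25 lower in diffuse cells, 41 higher in no-mCherry cells and 22 for the difference. With this block the difference no longer passed 0.05 for CCN1 (adjusted p = 0.105), CCN2 (0.129), POLR1G (0.126), CCL20 and SLC7A5, and the no-mCherry lists had 12 ribosome biogenesis, 5 heat shock and 4 ATF4 list genes called lower.

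Among the named genes, signs changed only for uncalled ones near 0: MTOR without diffuse replicate 1 (-0.0080) or condensed replicate 1 (-0.030, up to 0.25 over the 6 fits that left out a library), EEF1A1, RPS2 and NOP16 without condensed replicate 1 (-0.18 to 0.025, -0.13 to 0.024 and -0.15 to 0.054 over the 6), and SLC7A5 without diffuse replicate 2 (0.0055) or condensed replicate 2 (-0.060 to 0.055 over the 6). Medians near 0 changed sign too. That of the Notch list went from 0.0085 to -0.0011 by limma-voom and -0.0029 by DESeq2. That of all genes went from -0.008 to 0.011 with upper-quartile scaling. No gene below 1 CPM could be bounded within 1.5-fold.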

Other observations

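Genes involved in sterol and fatty acid synthesis and in quiescence are not described above. Of 32 sterol and fatty acid synthesis genes tested, none was called by edgeR in diffuse against condensed cells and 2 were lower at an unadjusted P below 0.05, with a list median of -0.06 (log2) and 31 of the 32 intervals within 1.5-fold of no change. In the no-mCherry line 1 was called lower, with a median of -0.15. Of 30 FOXO targets and quiescence genes, none was called in SPARK-OFF cells, 1 was higher and 1 lower at an unadjusted P below 0.05, and the median was 0.03. In the no-mCherry line 2 were called higher, with a median of 0.21. DESeq2 and limma-voom called no member of either list in SPARK-OFF cells. Over all genes edgeR called 0.0924% lower and 0.0381% higher in these cells.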
